A study of Mus musculus with 6 samples.

Results

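RNA of the endogenous retroviruses annotated as ERVK, other than those named IAP or ETn, was followed through an eCLIP experiment on mouse Gtsf1. The members were chosen by name from the annotated features, and were all ERVK long terminal repeat (LTR) features whose name holds neither IAP nor ETn. They comprised 61892 of the 1753368 features with any read, each a single genomic copy, and belonged to 249 subfamilies (217 of LTRs and 32 of internal regions). Gtsf1, also called Asterix, was expressed in P19 cells, a mouse embryonal carcinoma line, by transient transfection of a plasmid in which the EF-1alpha promoter drives the protein with a TEV site and Strep tag at its C-terminus. All 6 libraries came from such transfected cells, so none shows the RNA held by beads from cells without the tagged protein. In 4 libraries the cells had been exposed to ultraviolet light of 254 nm, which joins RNA to bound protein, and these were 2 inputs (lysate before capture) and 2 pull-downs on MagStrep XT beads. The other libraries were 1 input and 1 pull-down from cells without crosslinking. The labels do not say that replicates came from separate cultures, so p-values measure the spread between these libraries, which may be technical.

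ERVK elements are the betaretrovirus-like class of mammalian endogenous retroviruses. An intact copy has an internal region with the gag, pro and pol genes between identical LTRs that carry the promoter and the polyadenylation signal, and recombination between the LTRs leaves the many solitary LTRs of the genome. The K stands for lysine, after the tRNA that primes reverse transcription in the elements for which the class was named. Gtsf1 is a zinc-finger protein that acts with PIWI proteins and their piRNAs and is needed for silencing of retrotransposons in the mouse male germ line, while in early embryonic cells LTRs of ERVK subfamilies are known both as targets of KRAB zinc-finger proteins with SETDB1 and as sites bound by pluripotency factors.

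Libraries held between 13168593 and 18418166 reads, and RPM scales the reads of a feature to all reads of its library. The Gtsf1 pre-mRNA feature had 46.9 and 46.3 RPM in crosslinked inputs and 102.0 and 210.3 RPM in crosslinked pull-downs, while the non-crosslinked input and pull-down had 49.2 and 40.6 RPM. Construct and endogenous gene are not separated in this feature. Of the P19 markers, Pou5f1, Sox2, Lin28a, Utf1 and Dnmt3b had reads in all 6 libraries, and Dppa4 and Dppa5a were at or near 0. Genes of other lineages stayed under 0.62 RPM in every input, and Gata6 had 3.13, 3.00 and 2.27 RPM in the 3 pull-downs. The part of this difference in the ERVK values was not tested. Copies are given by the names in the files, in which a number after "dup" marks each copy, and their coordinates and sequences were not used here.

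ERVK members made up a larger share of the reads after pull-down than in the input, with and without crosslinking. They held 0.192% and 0.200% of all reads in crosslinked inputs and 0.304% and 0.279% in crosslinked pull-downs. The mean share was 0.196 ± 0.00536% in inputs and 0.291 ± 0.0181% in pull-downs (SD, n = 2 each), a ratio of 1.49. Each pull-down exceeded each input, and the two-sided exact permutation test gave p = 0.333 (adjusted over all shares tested, 0.389), the smallest p that 2 libraries against 2 allow. Without crosslinking the share was 0.105% in the input (95% Wilson interval 0.103 to 0.107%) and 0.218% in the pull-down (0.215 to 0.220%), 2.07 times as much. These intervals and the floors used below account for counting error alone, as PCR copies of a molecule may be counted several times.

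**Figure D1:**
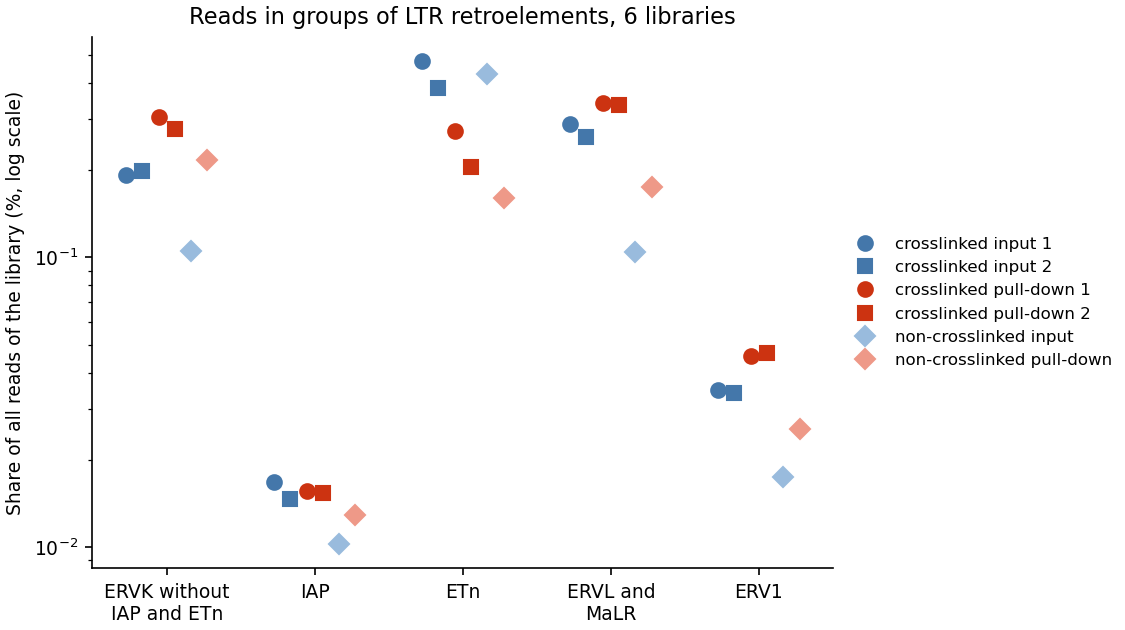
Percent of all reads of each library (log scale) in the ERVK members and in 4 other groups of LTR elements, with 1 point per library. Both crosslinked pull-downs lie above both crosslinked inputs for ERVK without IAP and ETn, and below them for ETn.

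Other LTR elements were set beside these values on the same scale, as in the plot of reads in groups of LTR elements. The ratio of mean shares, crosslinked pull-down over input, was 0.987 for IAP, 0.553 for ETn, 1.23 for ERVL with MaLR and 1.34 for ERV1. Per read of ETn, the best-known non-autonomous ERVK elements of the mouse, there were 0.402 and 0.517 reads of the other ERVK members in the inputs and 1.12 and 1.36 in the pull-downs. These ratios were higher in each pull-down than in each input (exact permutation p = 0.333, again the smallest possible). Within the members, internal regions held 22.8% and 23.8% of the reads in the inputs and 26.4% and 24.3% in the pull-downs, against 19.3% and 34.7% in the non-crosslinked input and pull-down. The ratio of shares was 1.62 for internal regions and 1.45 for LTRs with crosslinking, and 3.72 and 1.68 without. These ratios weigh each subfamily by its reads. Without crosslinking, RMER17A-int rose from 52.4 to 254 RPM, RLTR42-int from 12.8 to 188 and ERVB4_1-I_MM-int from 1.78 to 67.9. Of the 26 internal regions tested below, 19 rose and 7 fell there. Over tested subfamilies the order turned, with median log2 ratios of 0.79 for internal regions and 0.97 for LTRs with crosslinking. Without it the medians were 0.72 and 1.01. These differences were not tested.

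More copies had a read after pull-down. A read was found on 18364 and 18459 copies in crosslinked inputs and on 28076 and 27295 in crosslinked pull-downs, with 7422 and 9239 in the non-crosslinked input and pull-down, and these numbers move with depth. Reads per copy with a read were 1.83 and 1.99 in crosslinked inputs and 1.75 and 1.62 in crosslinked pull-downs, but 2.00 in the non-crosslinked input and 3.10 in the non-crosslinked pull-down. The 10 copies with the most reads held between 17.7% and 27.6% of the member reads in the crosslinked libraries, with inputs and pull-downs overlapping. Without crosslinking their share was 21.3% in the input and 38.0% in the pull-down, so there the reads were more concentrated after pull-down. Copies with a mean under 1 RPM summed to 1054 and 986 RPM in the inputs and 1603 and 1563 RPM in the pull-downs, so the rise was present outside the abundant copies too.

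Summed per subfamily, 96 of 186 tested ERVK subfamilies were higher in crosslinked pull-downs. Averaged over the 4 crosslinked libraries, 1 RPM or more was reached by 186 subfamilies (160 of LTRs and 26 of internal regions), and the other 63 held 1.17% of the member reads. The threshold fell between RLTR31B_Mm with a mean of 1.01 RPM and RLTR20C with 0.998 RPM. With edgeR over the whole table of 39069 features, in which the copies of each repeat subfamily were summed, 96 ERVK subfamilies were called higher and 2 lower at an adjusted p under 0.05. Over the whole table, 5.33% of features were called higher and 2.72% lower. The median log2 ratio was 0.95 over the ERVK subfamilies and -0.21 over all features. With TMM scaling the median of all features moved to -0.0033 and that of the ERVK subfamilies to 1.15, with 115 called higher and 1 lower, beside 5.91% and 1.08% of all features. Of the 63 untested subfamilies, 32 lay higher in both pull-downs than in both inputs, 4 lay lower and 27 overlapped. Of all untested features with a read, 14.9% lay higher and 18.6% lower. These include single features that are not sums over copies, and read depth was not matched.

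The filter let in subfamilies through the pull-downs alone. The mean was under 1 RPM in the inputs for 23 of the 186, and 17 of these were called higher, while 4 were under it in the pull-downs. With the filter set on inputs and pull-downs, 75 of 159 subfamilies were called higher and 1 lower, beside 2.71% and 1.7% of all features under that filter. Both pull-downs lay above both inputs in 144 of the 186 subfamilies, beside 10.2% of all features, and below them in 14, beside 57.8%.

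Subfamilies of other LTR groups were tested in the same fit. For ERVL with MaLR, 55 of 137 subfamilies were called higher and 0 lower, with a median log2 ratio of 0.64. For ERV1 the counts were 13 and 1 of 55 (median 0.43), for IAP 6 and 1 of 17 (0.43) and for ETn 0 and 1 of 5 (-0.39). For single copies the counts were 100 higher and 1 lower of 151 for ERVL with MaLR and 16 and 0 of 36 for ERV1. They were 3 and 5 of 10 for IAP, 14 and 139 of 324 for ETn and 95 and 79 of 273 for the ERVK members. Over all features, 6.44% were called higher and 3.5% lower. Of the ERVK copies called higher, 82 averaged under 1 RPM in the inputs. Of those called lower, 70 averaged under it in the pull-downs. These copy counts thus follow in part from the filter, which was the same for the other groups. Whether the groups differ from the ERVK members was not tested.

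Among the ERVK members, internal regions and LTRs both had medians above 0. Of 26 internal regions, 11 were called higher and 0 lower (median log2 ratio 0.79), and for the 160 LTR subfamilies the counts were 85 and 2 (median 0.97). Most name groups lay on the side of the pull-down. Over all features, 5.33% were called higher and 2.72% lower. The counts by name group include subfamilies that passed the filter through the pull-downs alone, 17 of the 96 called higher. All 6 tested BGLII LTR subfamilies were called higher (median 1.88), and the group had 7 subfamilies in all. Of 37 tested RMER subfamilies, 21 were called higher (0.95), with the highest ratio, 2.01, in RMER3D-int. Of 16 MLTR subfamilies, 7 were called higher (0.80). Among these 7, MLTR13, MLTR31A_MM and MLTR32C_MM averaged under 1 RPM in the inputs and passed the filter through their pull-downs. Of 3 MYSERV internal regions, 2 were called higher (1.03). Of the 4 RLTR17 subfamilies, 2 were called higher, RLTR17 itself with 2.08 and RLTR17B_Mm with 1.62, while RLTR17C_Mm had 0.28 and RLTR17D_Mm had -0.13, neither past the threshold. RLTR17 is an LTR known to carry binding sites of pluripotency factors in embryonic stem cells.

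The groups with medians near 0 were RLTR13, MMERVK9 with RLTR9, and ERVB. Of 18 tested RLTR13 subfamilies, 4 were called higher (median 0.26). These were RLTR13D2, RLTR13D3, RLTR13D6 and RLTR13D5, an LTR known as an enhancer in mouse trophoblast cells. Among them, RLTR13D3 averaged under 1 RPM in the inputs and passed the filter through its pull-downs. None of the 8 tested RLTR13A and RLTR13B subfamilies reached the threshold, with ratios from -0.98 in RLTR13A2 to 0.33 in RLTR13B4. Of 8 subfamilies of MMERVK9 with RLTR9, LTRs known as enhancers of embryonic stem cells among them, 1 was called higher, RLTR9A3 with 1.40 (group median 0.18). Of 10 ERVB subfamilies, 3 were called higher and 2 lower (0.09). The 70 tested subfamilies with other names had 43 called higher, 0 lower and a median of 1.20, RLTR20D (3.06), RLTR12C (2.94, under 1 RPM in the inputs) and RLTR20B2 (2.84) being the highest of them.

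**Figure D2:**
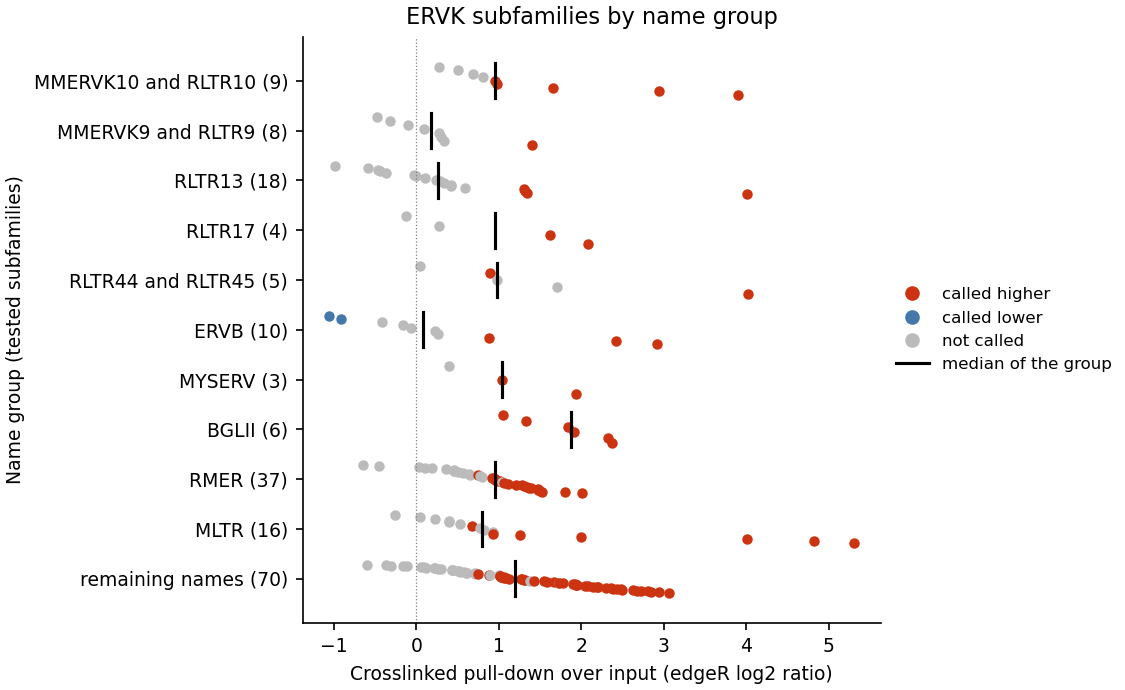
edgeR log2 ratio of crosslinked pull-down over input for each of the 186 tested ERVK subfamilies, 1 point each, by name group with the number tested in parentheses and a bar at the group median. All 6 BGLII points are called higher, and both subfamilies called lower are in the ERVB group.

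The subfamilies with the largest ratios were mostly scarce in the inputs. MLTR13 had 0.401 and 0.109 RPM in crosslinked inputs and 10.1 and 9.26 RPM in crosslinked pull-downs, while the non-crosslinked input and pull-down had 0.0707 and 8.77 RPM. All 3 pull-downs stood far above all 3 inputs, and edgeR gave a log2 ratio of 5.31 (SE 0.33, adjusted p = 0.00063). The ratio was 6.45 without crosslinked input 1 and 4.67 without crosslinked input 2. MLTR31A_MM had 0.641 and 0.362 RPM in crosslinked inputs, 13.5 RPM in each crosslinked pull-down, and 0.0707 and 13.6 RPM in the non-crosslinked input and pull-down. Its log2 ratio was 4.82 (SE 0.22, adjusted p = 0.00060), and again the pull-downs with and without crosslinking were at one level. RLTR13D3, with a log2 ratio of 4.01 (SE 0.19), had 0.657 and 0.733 RPM in the inputs and 9.89 and 10.6 RPM in the pull-downs, beside 10.4 RPM in the pull-down without crosslinking. MLTR32C_MM had a log2 ratio of 4.01 (SE 0.43), MMERVK10D3_LTR 3.90 (SE 0.26, and 4.49 without crosslinked input 1), RLTR20D 3.06 (SE 0.18) and RLTR10A 2.94 (SE 0.19), and in each of them the non-crosslinked pull-down also lay above its input. MLTR13, MLTR31A_MM, RLTR13D3, MLTR32C_MM and MMERVK10D3_LTR averaged under 1 RPM in the inputs and passed the filter through their pull-downs, so their calls follow in part from that choice and are given as a description.

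In RLTR44C the non-crosslinked pull-down lay well below both crosslinked pull-downs. It had 2.28 and 0.778 RPM in crosslinked inputs and 12.7 and 33.3 RPM in crosslinked pull-downs, but the non-crosslinked input and pull-down had 0.919 and 2.24 RPM. The non-crosslinked pull-down lay above its own input and crosslinked input 2, and close to crosslinked input 1. The edgeR log2 ratio was 4.02 (SE 0.62, adjusted p = 0.012) with crosslinking. Without crosslinking it was 1.41, from 1 library against 1, and was not called. With crosslinking it was 4.99 without crosslinked input 1 and 3.15 without crosslinked pull-down 2. The difference of 2.61 between crosslinked and non-crosslinked ratios did not pass (unadjusted p = 0.112, edgeR). Crosslinked pull-down 2 was 2.61 times crosslinked pull-down 1, and 11 tested subfamilies differed at least 1.5-fold between these libraries. Of these, 4 were higher in pull-down 2 (RLTR44C, RLTR44E, RLTR9A3 and MLTR32C_MM) and 7 in pull-down 1, among them ERVB4_1-I_MM-int with 79.4 and 41.3 RPM. RLTR44E had 2.45 and 1.01 RPM in the inputs, 3.42 and 7.27 RPM in the pull-downs, and 1.06 and 0.883 RPM in the non-crosslinked input and pull-down (log2 ratio 1.71, adjusted p = 0.095). The share of tRNA reads was also higher in pull-down 2, with 0.338% in pull-down 1 and 0.903% in pull-down 2, and a link between these values was not tested.

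The 10 subfamilies with the most reads behaved in different ways, and since RPM is not per length and subfamilies differ in copies, their order is one of reads and not of expression. RLTR42-int, an internal region, had 42.0 and 41.3 RPM in crosslinked inputs and 209 and 149 RPM in crosslinked pull-downs. It was called higher, with a log2 ratio of 2.19 (SE 0.21, adjusted p = 0.0019), and the non-crosslinked libraries had 12.8 RPM in the input and 188 RPM in the pull-down. RMER17C2 had 31.4 and 52.0 RPM in the inputs and 109 and 94.2 RPM in the pull-downs, a log2 ratio of 1.37 (SE 0.27, adjusted p = 0.031), beside 9.80 and 88.3 RPM without crosslinking. Its adjusted p was 0.056 without crosslinked input 1 and 0.052 without crosslinked pull-down 1. RLTR17B_Mm had 36.3 and 31.2 RPM in the inputs and 86.2 and 108 RPM in the pull-downs, a log2 ratio of 1.62 (SE 0.19, adjusted p = 0.0043). Without crosslinking it had 7.19 RPM in the input and 41.5 RPM in the pull-down, so the pull-down lay above the input in both conditions for each of these 3 subfamilies.

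The only ERVK subfamilies called lower were a pair of ERVB LTRs. ERVB7_1-LTR_MM, the subfamily with the most reads, had 237 and 174 RPM in crosslinked inputs and 106 and 97.7 RPM in crosslinked pull-downs, while the non-crosslinked input and pull-down had 221 and 96.7 RPM. All 3 pull-downs were close together and below all 3 inputs, and the log2 ratio was -0.92 (SE 0.20, adjusted p = 0.043). The call was lost without crosslinked input 1 (log2 ratio -0.69, adjusted p = 0.202), without crosslinked pull-down 1 (-0.96, adjusted p = 0.080) and without crosslinked pull-down 2 (-0.87, adjusted p = 0.122), and in 6 other alternatives. ERVB4_1C-LTR_Mm had 137 and 108 RPM in the inputs, 56.5 and 53.7 RPM in the pull-downs, and 96.5 and 50.1 RPM in the non-crosslinked input and pull-down. Its log2 ratio was -1.06 (SE 0.18, adjusted p = 0.018), and the call was lost without crosslinked input 1 (-0.90, adjusted p = 0.082) and with DESeq2 (-0.86, adjusted p = 0.117). Other ERVB members rose, ERVB7_2-LTR_MM with 2.42, ERVB4_1-I_MM-int with 2.92 and ERVB2_1A-I_MM-int with 0.88, so the ERVB group held both directions.

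Abundant subfamilies without a call included RLTR13G, RMER19B, MMERVK9C_I-int and both RMER17A members. RLTR13G had 152 and 135 RPM in the inputs and 187 and 130 RPM in the pull-downs, which overlapped (log2 ratio 0.24, adjusted p = 0.568). RMER19B had 55.4 and 52.4 RPM against 59.6 and 56.3 RPM (log2 ratio 0.19, adjusted p = 0.514), and MMERVK9C_I-int had 73.7 and 56.8 RPM against 56.4 and 41.4 RPM (-0.33, adjusted p = 0.438). RMER17A had 118 and 258 RPM in crosslinked inputs and 111 and 116 RPM in crosslinked pull-downs, so the inputs differed more from each other than the lower one did from the pull-downs. Its log2 ratio was -0.64 (adjusted p = 0.364), changing to -1.11 (adjusted p = 0.015) without crosslinked input 1 and to 0.05 without crosslinked input 2. RMER17A-int, the internal region of the same name, had 107 and 175 RPM against 88.3 and 105 RPM (-0.46, adjusted p = 0.390). Without crosslinking both levels lay the other way round, from 72.4 RPM in the input to 196 RPM in the pull-down for RMER17A and from 52.4 to 254 RPM for RMER17A-int.

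MMERVK10C-int, the internal region of a group of young ERVK proviruses known from work on SETDB1 silencing, had 26.9 and 34.6 RPM in crosslinked inputs and 59.8 and 53.8 RPM in crosslinked pull-downs. It was called higher with a log2 ratio of 0.97 (SE 0.19, adjusted p = 0.030), and had 12.5 and 59.3 RPM in the non-crosslinked input and pull-down. The call was lost without crosslinked input 1 (0.79, adjusted p = 0.189) and without crosslinked pull-down 1 (0.91, adjusted p = 0.055). Of the 9 tested subfamilies of MMERVK10 with RLTR10, the latter an LTR of this group, 5 were called higher and 0 lower (median 0.95). In all 9 the pull-downs exceeded the inputs without overlap. Over all features, 5.33% were called higher and 10.2% lay higher without overlap. MMERVK10D3_LTR, among the 5 called, averaged under 1 RPM in the inputs and passed the filter through its pull-downs. Mouse mammary tumour virus, an ERVK member that is also an exogenous virus, was not tested, since MMTV-int had 0 and 2 reads in crosslinked inputs and 5 and 2 in crosslinked pull-downs, with 1 read in each non-crosslinked library.

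**Figure D3:**
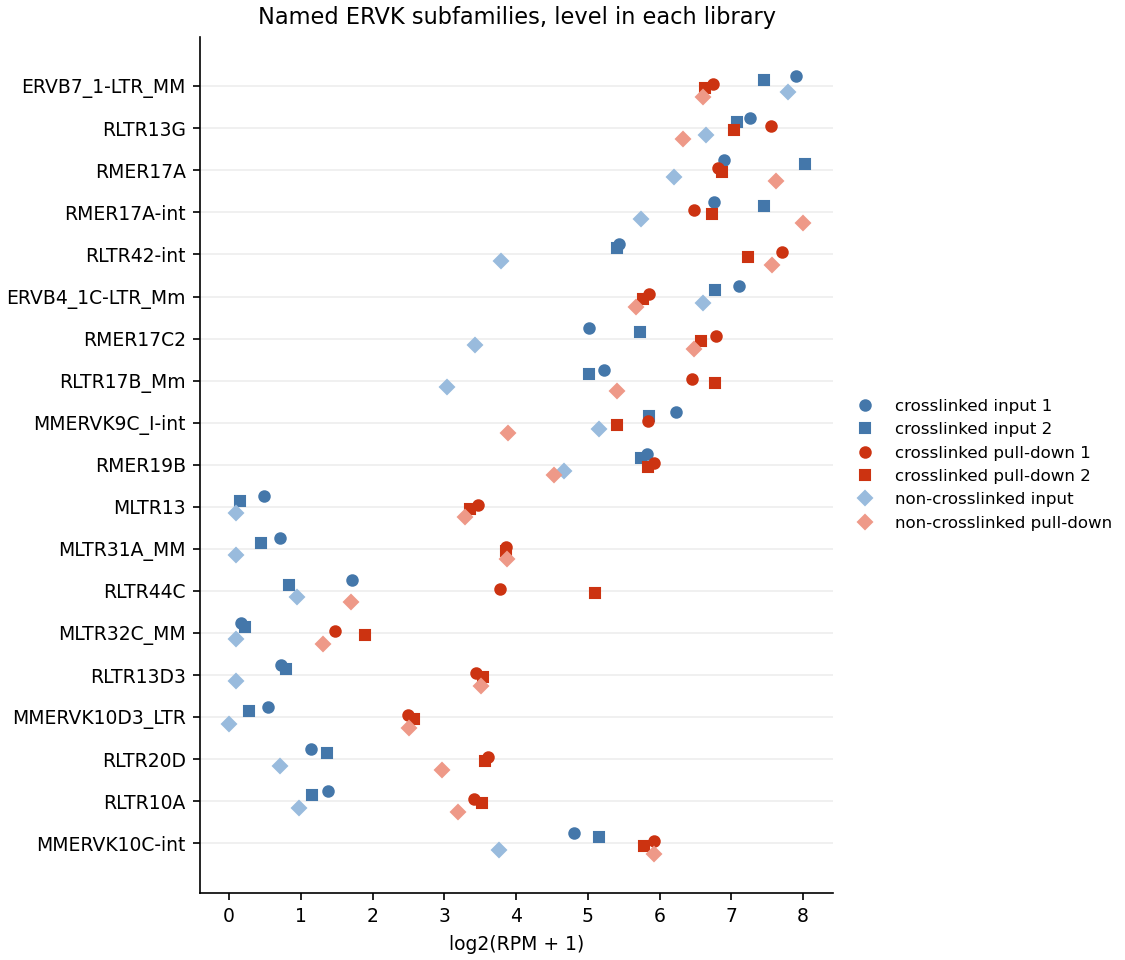
Level in each of the 6 libraries, as log2(RPM + 1), of the ERVK subfamilies named by rule, 1 point per library. In RLTR44C the non-crosslinked pull-down lies above its own input, close to crosslinked input 1 and well below both crosslinked pull-downs. ERVB7_1-LTR_MM and ERVB4_1C-LTR_Mm have all 3 pull-downs below all 3 inputs.

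The same enrichment was measured without crosslinking, which shows what the beads held when no RNA had been joined to protein by light. In a fit of all 6 libraries, where the lone libraries were assumed to vary like the replicated ones, 69 of the 186 ERVK subfamilies were called higher and 2 lower in the non-crosslinked pull-down. Over all features, 3.95% were called higher and 7.21% lower there. The median log2 ratio was 0.96 over the ERVK subfamilies and -0.78 over all features. Of the 96 subfamilies called higher with crosslinking, 95 also had a non-crosslinked pull-down above its input, 79 of them by a log2 ratio of at least 1, and 65 were called higher. The exception was RLTR13D2, with 1.32 with crosslinking and -0.15 without. Among all 186 tested members 143 had a non-crosslinked edgeR log2 ratio above 0, which is per annotated read, and 92 had one of at least 1. Of all features, 17.1% had a non-crosslinked pull-down above its input per annotated read, and 6.62% one at least 2 times its input.

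No ERVK subfamily passed the test of the difference between the crosslinked and the non-crosslinked enrichment. The count was 0 in both directions with edgeR, 0% of all features passed, and the smallest adjusted p of a member was 0.311. At an unadjusted p under 0.05, 35 members differed, 8 with the larger enrichment in the crosslinked libraries and 27 with the smaller, beside 12% and 2.1% of all features. With TMM scaling the numbers were 2 and 62, beside 1.51% and 7.62% of all features. DESeq2 called 6 subfamilies, all with the smaller enrichment with crosslinking, and gave no adjusted p for 123. Of all features it called 0.041% with the larger and 0.438% with the smaller. The median difference was -0.09 over the ERVK subfamilies and 0.57 over all features, and with TMM scaling -0.69 and -0.0220. Of the subfamilies called higher, 29 had a larger and 67 a smaller ratio with crosslinking than without.

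**Figure D4:**
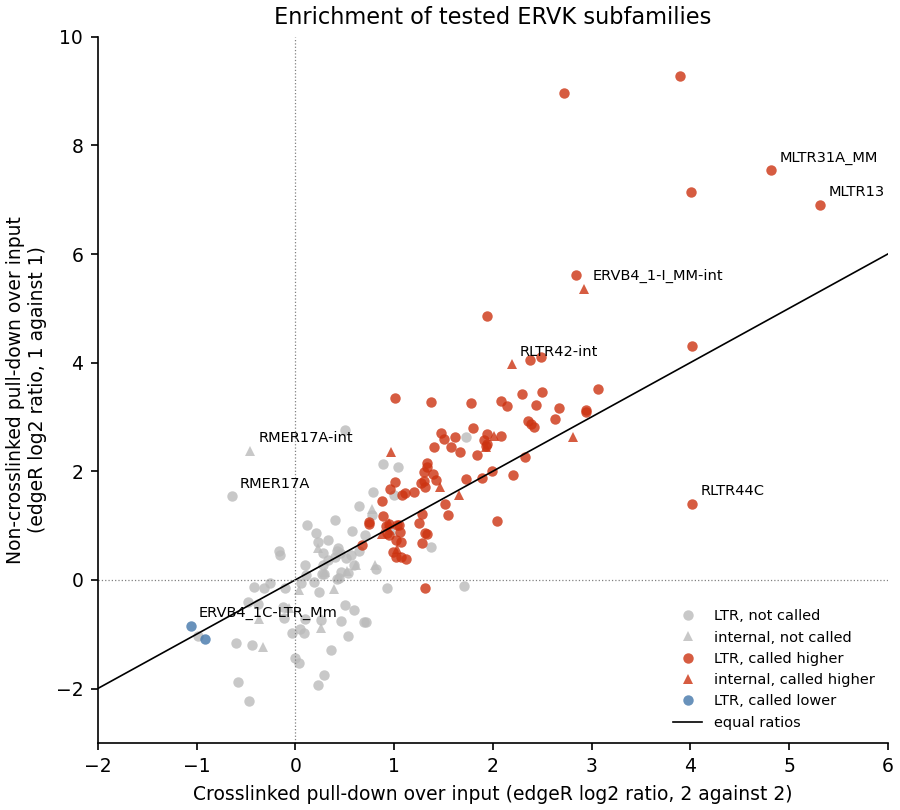
edgeR log2 ratio of pull-down over input for 186 ERVK subfamilies, without crosslinking (vertical axis, 1 library against 1) against with crosslinking (horizontal axis, 2 against 2), with the line of equal ratios. Both ratios of a subfamily called higher are above 0 in 95 of 96, RLTR44C lies below the line, and the 2 points above 8 on the vertical axis have no read in the non-crosslinked input, so their fitted height is no bound.

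In the plot of both enrichments, the 2 members furthest above the line of equal ratios had no read in the non-crosslinked input, while RMER17A-int and RMER17A, also above it by more than 2 on the log2 scale, had 742 and 1024 reads there. MMERVK10D3_LTR had 0 reads there and a level of 4.67 RPM after pull-down without crosslinking, at least 22.0-fold higher when 3 reads are taken as the floor, against 0.458 and 0.217 RPM in crosslinked inputs and 4.61 and 4.96 RPM in crosslinked pull-downs. RLTR16C_MM also had 0 reads in that input, and 3.83 RPM after the corresponding pull-down, at least 18.1-fold higher. The 3 pull-downs of MMERVK10D3_LTR thus lay between 4.61 and 4.96 RPM.

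Single copies carried much of the signal of several subfamilies. The largest copy held a median of 18.2% of the pull-down reads of a tested subfamily and 9.09% of the input reads, and in 19 subfamilies it held at least 50% of the pull-down reads. In RLTR42-int the copy dup2302 held 87.4% of the input reads and 95.2% of the pull-down reads, and in ERVB4_1-I_MM-int the copy dup44 held 91.7% and 97.7%. Without their largest copy, an alternative chosen after the data were seen, 74 of the 96 subfamilies were still called higher, 22 were not, and 6 others became so, while both subfamilies called lower stayed called. RLTR42-int then had a log2 ratio of 0.82 (adjusted p = 0.033), ERVB4_1-I_MM-int 1.07 (adjusted p = 0.036), RLTR10A 1.13 (adjusted p = 0.025) and MMERVK10C-int 0.49 (adjusted p = 0.189). For MLTR13, in which dup175 held 90.7% of the pull-down reads and none of the input reads, the ratio fell to 1.86, and for MLTR32C_MM to 1.37 (adjusted p = 0.304). MLTR31A_MM went from 4.82 to 2.40 and RLTR20D from 3.06 to 2.18, while RLTR13D3 had 3.46 and MMERVK10D3_LTR 3.62.

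At the level of copies the test held members of both directions. The 273 copies with a mean of at least 1 RPM held 46.7% of the member reads, and with edgeR over the 39872 single features tested, 95 were called higher and 79 lower. Over all features, 6.44% were called higher and 3.5% lower. Of the 273, 93 were under 1 RPM in the inputs, 82 of them called higher, and 88 were under it in the pull-downs, 70 of them called lower. With the filter set on both, 8 of 92 copies were called higher and 7 lower, beside 2.1% and 1.85% of all features. Pull-downs lay wholly above the inputs in 114 copies, beside 10.8% of all features, and wholly below them in 124, beside 57.7%. Without crosslinking 93 copies were called higher and 35 lower, beside 5.01% and 7.96% of all features. DESeq2 called 98 higher and 3 lower, beside 6.29% and 0.597% of all features. The count of lower copies was 50 without crosslinked input 1, 42 without crosslinked pull-down 1 and 47 without crosslinked pull-down 2.

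Copies called lower came from 10 subfamilies. There were 38 copies of ERVB7_1-LTR_MM among its 46 tested and 32 of ERVB4_1C-LTR_Mm among its 39 tested, but 36 and 28 of these averaged under 1 RPM in the pull-downs and passed the filter through the inputs, so the counts are a description and no support for a fall. Reads that match several features were split by the authors, and 25 tested copies had the same counts as another in all 6 libraries, so copies of a subfamily are not independent. ERVB7_1-LTR_MM_dup11 had 16.3 and 10.9 RPM in crosslinked inputs, 3.65 and 2.64 RPM in crosslinked pull-downs, and 23.4 and 7.20 RPM in the non-crosslinked input and pull-down (log2 ratio -2.01, SE 0.25, adjusted p = 0.0041). The other named copies of that subfamily, dup291, dup18 and dup552, were alike, with 2.35, 2.34 and 2.35 RPM in input 1 and 0.649, 0.645 and 0.643 RPM in pull-down 1. Unlike dup11, these averaged under 1 RPM in the pull-downs and were not called by DESeq2 (adjusted p = 0.167, 0.187 and 0.187). Of the 34 tested copies of RLTR13G none was called, with log2 ratios from -0.27 to 0.85.

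A single RMER17A copy had the lowest ratio of all tested ERVK copies. RMER17A_dup1374 had 30.3 and 43.9 RPM in crosslinked inputs, 4.72 and 7.90 RPM in crosslinked pull-downs, and 24.5 and 6.76 RPM in the non-crosslinked input and pull-down. The edgeR log2 ratio was -2.46 (SE 0.32, adjusted p = 0.0045), with no overlap. The most abundant RMER17A copy, dup297, had 76.3 and 194 RPM against 62.6 and 63.6 RPM (log2 ratio -1.02, adjusted p = 0.222), and 40.6 and 124 RPM in the non-crosslinked input and pull-down. Its log2 ratio was -1.55 (adjusted p = 0.0033) without crosslinked input 1 and -0.17 (adjusted p = 0.797) without crosslinked input 2. Without crosslinking these copies of 1 subfamily lay in opposite order, dup1374 higher in the input and dup297 in the pull-down. Of 47 tested internal-region copies, 8 were called lower, and the 3 with the lowest ratios were MMERVK9E_I-int_dup1382 (-1.69), MMERVK9C_I-int_dup77 (-1.69) and MMERVK10C-int_dup2681 (-1.68), with 2.27, 2.30 and 1.68 RPM in crosslinked input 1. All 3 averaged under 1 RPM in the pull-downs and passed the filter through the inputs, which favours a call lower. DESeq2 called none of them (adjusted p = 0.180, 0.220 and 0.252). MMERVK10C-int_dup2681 had 1.68 and 1.55 RPM in the inputs and 0.523 and 0.451 RPM in the pull-downs, the opposite order to its subfamily.

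Of the 95 copies called higher, 46 had 0 reads in both crosslinked inputs. RLTR17B_Mm_dup27189 had 0 reads in all 3 inputs, 11.2 and 12.6 RPM in crosslinked pull-downs, and without crosslinking its pull-down level was 10.7 RPM. With 3 reads per library as the floor, it was at least 71.1-fold higher with crosslinking and at least 50.5-fold higher without. RLTR11A2_dup1245 was at least 69.5-fold higher with crosslinking and RLTR34B_MM_dup414 at least 62.8-fold. The same held for RLTR17_dup1436 (at least 54.1-fold), MLTR13_dup175 (52.4), RMER12C_dup216 (48.9), RMER3D-int_dup239 (47.0) and RLTR10A_dup95 (43.3), all with 0 reads in all 3 inputs.

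In all, 44 tested copies from 33 subfamilies had 0 reads in every input, and all 44 were called higher. Such a copy passes the filter through its pull-down reads alone, so this count is no support for a rise. Their levels in the pull-downs ran from 1.99 to 11.2 RPM in crosslinked pull-down 1, from 1.54 to 12.6 RPM in crosslinked pull-down 2 and from 1.44 to 10.7 RPM without crosslinking. They summed to 203, 206 and 191 RPM in these 3 libraries, and in all 44 copies the non-crosslinked level was within 2-fold of the mean crosslinked level. The 7 tested copies of MYSERV6-int also averaged under 1 RPM in the inputs and passed the filter through the pull-downs, so that all 7 were called higher is no support either. Their subfamily, an internal region that was above the threshold in the inputs too, had 18.6 and 18.2 RPM in crosslinked inputs, 66.8 and 64.9 RPM in crosslinked pull-downs, and 9.58 and 49.0 RPM without crosslinking (log2 ratio 1.93, SE 0.15, adjusted p = 0.0010).

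**Figure D5:**
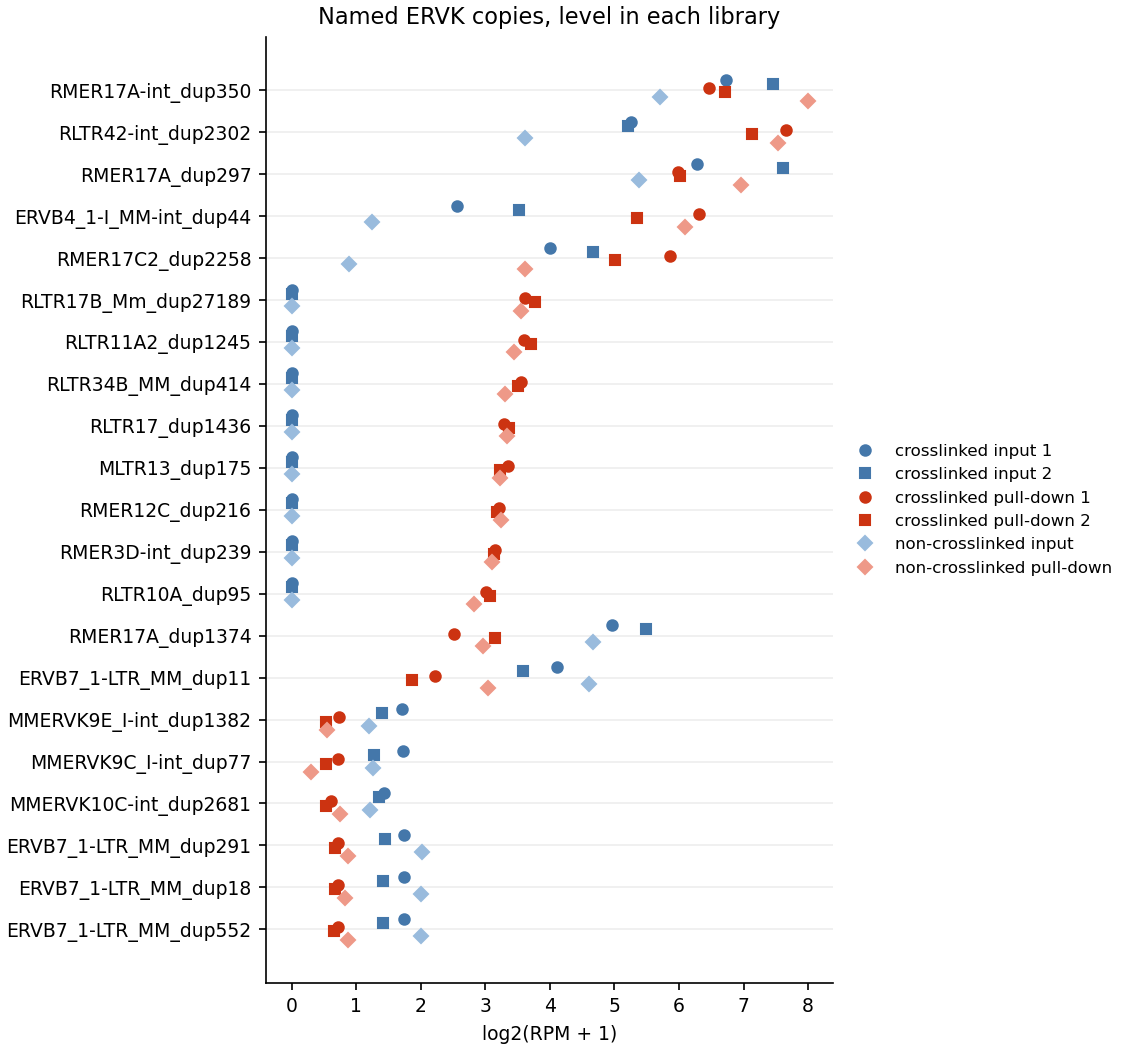
Level in each of the 6 libraries, as log2(RPM + 1), of the ERVK copies named by rule, 1 point per library. The 8 copies at 0 in all 3 inputs have nearly the same level in the 3 pull-downs, and RMER17A-int_dup350 is highest in the non-crosslinked pull-down.

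The 5 copies with the most reads were 3 of internal regions and 2 of RMER17 LTRs. RLTR42-int_dup2302 had 37.0 and 35.8 RPM in crosslinked inputs, 201 and 140 RPM in crosslinked pull-downs, and 11.2 and 184 RPM in the non-crosslinked input and pull-down (log2 ratio 2.31, SE 0.23, adjusted p = 0.0015). ERVB4_1-I_MM-int_dup44 had 4.92 and 10.5 RPM in the inputs, 78.0 and 39.9 RPM in the pull-downs, and 1.38 and 67.3 RPM without crosslinking (3.02, SE 0.46, adjusted p = 0.0095, and 3.68 without crosslinked input 2). Both were higher in all 3 pull-downs than in any input. RMER17C2_dup2258 had 14.9 and 24.4 RPM against 57.0 and 31.2 RPM and was not called by edgeR (1.24, adjusted p = 0.092). DESeq2 called it higher (1.43, adjusted p = 0.014). The edgeR log2 ratio was 1.66 without crosslinked input 2 and 1.61 without crosslinked pull-down 2. It was 0.92 without crosslinked input 1 and 0.76 without crosslinked pull-down 1. RMER17A-int_dup350, with 105 and 175 RPM against 86.9 and 104 RPM, was not called (-0.46, adjusted p = 0.400).

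How the enrichment ratio in the authors' deposited table was computed is not given in the sources used here, and that table lists 786 of the members among 216085 features. In the authors' deposited table the median ratio was 1.32 over these members and 1.37 over the table, and 466 of the members were above 1. It lists 78 of the copies called lower here, with a median ratio of 0.329 and all 78 below 1, and 11 of the copies called higher, with a median of 5.97 and 10 above 1. The highest ratio of an ERVK copy in the authors' deposited table was 135, for RMER6C_dup1467, and RLTR44C_dup171 and dup172 followed with 128 each. Those copies of RLTR44C had identical values, 0.688 and 0.136 RPM in crosslinked inputs, 5.12 and 14.8 RPM in crosslinked pull-downs, and 0.318 and 0.456 RPM in the non-crosslinked input and pull-down.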

How the data were processed

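The authors deposited, for each of the 6 libraries, expected counts for each annotated feature, whose fractional values show that reads were split between features, and those counts as RPM of all reads of the library; for the series the authors deposited 1 enrichment ratio per listed feature. Per the submitters' processing notes, bcl2fastq 2.19, STAR 2.5.2b and bedtools 2.29.0 were used with the build mm10. The annotation, the use of strand and whether PCR duplicates were removed are not given in the sources used here, so sense and antisense reads of a repeat cannot be told apart.

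ERVK members were summed per subfamily by removing the copy number from each name. Expected counts were rounded and tested with edgeR 4.0.16 (R 4.3.3, quasi-likelihood), with annotated reads as library size and no further factor. Reads without annotation, between 6.99% and 14.4% of a library, stayed out of library sizes and tests. Features needed to average 1 RPM or more in the 4 crosslinked libraries, and Benjamini-Hochberg adjustment ran over the whole table, with calls at an adjusted p under 0.05. The SE is that of the log2 ratio. The non-crosslinked ratio and the difference came from 1 fit of all 6 libraries. Shares were compared with exact permutation tests, and folds against 0 reads use a floor of 3 reads per library. Counts were also simulated for the features that passed the filter, with the trended dispersion of edgeR and 200 features changed by 2 on the log2 scale. The test recovered all 200 in the subfamily table of 39069 features, with 14 false calls. In the copy table of 39872 features it recovered all 200, with 5 false calls. As the simulation had no further spread between features, it does not show how the test does on features without input reads.

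Members, lists and name groups were chosen with earlier results of these data known. Subfamilies named by rule were the 10 with the highest mean, up to 8 higher and 8 lower calls with the largest ratio and no overlap, up to 5 in each direction past the test of the difference, MMERVK10C-int and MMTV-int. Copies named by rule were the 5 with the highest mean and up to 8 calls in each direction, identical copies being named once. Other members were named after their values were seen. Replicate counts over the 186 subfamilies differed beyond counting error (chi-square per degree of freedom 10.9 for inputs and 5.25 for pull-downs), so no libraries were merged. Alternatives were TMM factors, other library sizes, other filters, DESeq2 1.42.0, a replicate block, all 6 libraries in 1 fit, identical features counted once, each crosslinked library left out in turn and, chosen after the data were seen, subfamilies without their largest copy.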

Additional observations from a re-analysis of the deposited data

Results flagged for a closer look

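In 3 of the named subfamilies and 2 of the named copies, both crosslinked pull-downs moved one way from the crosslinked input of equal number. The non-crosslinked pull-down moved the other way from its input. The labels do not say that equal numbers share a culture. The edgeR test of the difference of log2 enrichment, crosslinked minus non-crosslinked, gave -2.19 for RMER17A (unadjusted p = 0.0119, adjusted p = 0.311), from -0.64 with crosslinking and 1.54 without. For RMER17A-int it gave -2.84 (unadjusted p = 0.00084, adjusted p = 0.311), from -0.46 and 2.38. Nearly all reads of RMER17A-int come from its copy dup350, which had -2.88 (unadjusted p = 0.0011, adjusted p = 0.335), and RMER17A_dup297 had -2.73 (unadjusted p = 0.0094, adjusted p = 0.335). For RMER19B the difference was 0.23 (unadjusted p = 0.437, adjusted p = 0.685), from 0.19 and -0.04. None passed the adjusted threshold, and the non-crosslinked libraries were single. With crosslinking, RMER17A had a log2 ratio of 0.050 without crosslinked input 2 and 0.021 without its largest copy. RMER17A-int had 0.025 without its largest copy. The median difference over all features was 0.57, above that of RMER19B.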

How the results depend on the processing

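Counts of ERVK subfamilies called higher stayed within 1.5 times of 96 in all alternatives run except with no filter, where 0 were called higher and 0 lower with edgeR (140 of 249 had an unadjusted p under 0.05, and DESeq2 with the usual filter called 86). The copies likewise had 0 and 0 with no filter (1627 with an unadjusted p under 0.05), and 598965 and 942743 features were then tested. The 2 lower subfamilies became 1 with TMM factors, 1 with the filter on the inputs, 1 with the filter on inputs and pull-downs, 0 with DESeq2 (its count of members at an unadjusted p under 0.05 was 117 in both directions together) and 1 with the replicate block, and ranged from 1 to 3 when each crosslinked library was left out. Higher copies became 9 with the filter on the inputs and 8 with the filter on both; lower copies became 7 with the filter on both and 3 with DESeq2, and ranged from 42 to 90 over the libraries left out. For the difference between crosslinked and non-crosslinked enrichment, the count with a smaller crosslinked enrichment was 6 with DESeq2 and 0 to 2 over the libraries left out.

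The log2 ratio of mean shares, 0.57, was 0.66 over annotated reads, 0.77 over annotated reads without rRNA, 0.68 without ERVB7_1-LTR_MM and 0.44 without the largest copy of each subfamily. The sign turned for RLTR13G, whose log2 ratio ran from -0.033 (without crosslinked pull-down 1) to 0.46 over the libraries left out, and for RMER17A, from -1.11 to 0.050 (without crosslinked input 2) over the libraries left out and 0.021 without its largest copy. It also turned for RMER17A-int without its largest copy (0.025). Of the values for named members, 460 kept direction and side of the threshold, 59 lost their call, 5 gained one and 4 turned. The cause of these changes was not tested, apart from fewer features or libraries by construction.

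The replicate block, with the replicate number of the titles as a term, gave 90 subfamilies higher and 1 lower, and 90 copies higher and 83 lower. Named subfamilies that did not pass with the block were RLTR44C (log2 ratio 3.89, adjusted p = 0.051), MMERVK10C-int (0.98, adjusted p = 0.060), RMER17C2 (1.42, adjusted p = 0.063) and ERVB7_1-LTR_MM (-0.90, adjusted p = 0.058). The labels do not say that equal numbers share a culture, and the deviations of same-numbered libraries correlated by 0.115 over the subfamily table and 0.109 over the copy table, with only 2 pairs. With 2 libraries a group, and 1 without crosslinking, the precision of each ratio is limited by the number of libraries more than by reads for the abundant members.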
